A study of Mus musculus with 12 samples.

Results

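The genes described here are 9 genes of the contractile and actin-binding apparatus, namely Acta2, Tagln, Myl9, Cnn1, Tpm1, Tpm2, Flna, Flnc and Akap12. They were chosen by name with earlier results of these data known, and all 9 were found by Entrez identifier among the 13124 genes of the count table. Flnc and Akap12 were added because their changes were large, so their values are given as a description with no test, and tests are given for the other 7 genes. RNA was sequenced from 12 perfused whole kidneys of male C57BL/6 mice, with all cell types together, 24 h after surgery. Kidneys 1 to 3 came from mice with a sham operation, which carried no antibody. Kidneys 4 to 12 had undergone ischaemia-reperfusion injury (IRI), in which blood flow to the kidney is stopped and then restored. Their mice had been given an antibody 24 h before IRI: an isotype control antibody (kidneys 4 to 6), the antibody VR81 against G-CSFR, the receptor of granulocyte colony-stimulating factor (kidneys 7 to 9), or the antibody BB5.1 against the complement protein C5 (kidneys 10 to 12). The isotype group therefore differed from sham in both the injury and the injected antibody, and these cannot be told apart.

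Contractile cells shorten when myosin pulls on actin filaments. Acta2 encodes the smooth muscle actin of vessel walls and of activated fibroblasts, Myl9 encodes the myosin light chain whose phosphorylation starts the pull, and tropomyosins (Tpm1, Tpm2) lie along the filament and govern access of myosin to it. Transgelin (Tagln) and calponin 1 (Cnn1) bind actin filaments in smooth muscle, and filamins (Flna in most cells, Flnc mainly in muscle) cross-link filaments into networks. Akap12, also called gravin, is a scaffold that holds protein kinases A and C near the membrane and the cytoskeleton. Many of these genes are known targets of the transcription factor SRF, which binds the CArG box and is switched on by its partners Mrtfa and Mrtfb when free actin is used up. In the kidney, the classical contractile genes are known from arterial smooth muscle, pericytes, mesangial cells and the myofibroblasts of scarring.

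Libraries held 13200930 to 16324215 counts. Levels are in CPM, read counts scaled to a common library size with TMM factors. Markers of the labelled tissue were present: 8 genes of the proximal tubule, the main reabsorbing segment, summed to 10424 to 11602 CPM in sham kidneys, with none of them at 0. Kidneys 9 and 11 stood apart from their own groups. On the first principal component of all genes, which held 80.9% of the variance, the isotype kidneys lay at 77.6 to 104, kidney 9 at −14.7 and kidney 11 at 11.6, and the other 7 kidneys at −44.5 to −34.1. Within the isotype group kidney 4 also stood apart. On the second component, which held 5.89% of the variance, it lay at −25.9, and kidneys 5 and 6 at 15.8 and 16.3. Chi-square values per degree of freedom were 46.1 and 48.4 for its pairs with kidneys 5 and 6, and 5.45 between those. The changes of the 9 genes against isotype are also given without kidney 9 or 11.

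The promoters of the genes are shown because many of the genes are known targets of SRF. The part of SRF in their changes was not tested. RefSeq windows (GRCm38.p6, 250 bases before to 50 after the start site) were matched by Entrez identifier for 7 of the 9 genes, all but Tagln and Akap12. They were searched on both strands for the CArG box (CC, then a run of A or T, then GG), for CATTCC, the motif of the TEAD factors, and for TGANTCA, the motif of AP-1. A strict CArG box was found in 1 of 7 genes, Myl9, against 1.525% of the table's 10428 genes with a window. CATTCC was found in 4 of 7 (Acta2, Tpm1, Flna and Flnc), against 14.54%, and TGANTCA in 0 of 7, against 6.54%. With 1 mismatch allowed, a setting chosen after the strict matches were seen, a CArG box was found in 5 of 7 (Acta2, Myl9, Tpm1, Flna and Flnc), against 19.97%. No CATTCC match overlapped a CArG match. Cnn1 and Tpm2 held none of these motifs in their windows. A match describes letters in a window and is not evidence of binding.

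The stretch before the Myl9 start site (chr2:156775293-156775419, plus strand) held the strict CArG box at positions −161 to −152 and a CArG box with a mismatch at −99 to −90, in capitals. The stretch of Flna (chrX:74246556-74246690, minus strand) held CATTCC at −146 to −141 and a CArG box with a mismatch at −44 to −35. It lies before a RefSeq start site but inside the GENCODE gene (chrX:74223461-74249820), outside its annotated UTRs. Flnc had more than 1 window. The stretch before the later of its start sites (chr6:29433142-29433255, plus strand) is printed and held CATTCC at −104 to −99. The CArG box of Flnc with a mismatch lay before an earlier start site, at −163 to −154, in a stretch not printed (chr6:29432980-29433152).
Myl9: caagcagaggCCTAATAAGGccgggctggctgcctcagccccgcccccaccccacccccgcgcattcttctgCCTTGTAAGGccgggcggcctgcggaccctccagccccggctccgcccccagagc
Flna: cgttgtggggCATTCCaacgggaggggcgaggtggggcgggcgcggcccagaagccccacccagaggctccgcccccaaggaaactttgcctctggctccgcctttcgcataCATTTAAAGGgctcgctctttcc
Flnc: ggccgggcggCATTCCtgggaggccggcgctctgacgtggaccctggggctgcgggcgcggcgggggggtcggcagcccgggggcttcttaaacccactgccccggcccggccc

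For Acta2 and Tpm1 (both minus strand) short stretches around the sites are shown. Positions below are those of the sites, and coordinates in brackets are those of the printed stretches. Positions count from the RefSeq start site, but in GENCODE the Acta2 sites and all Tpm1 sites but that at −221 lie in an annotated UTR, inside the gene. Those of Acta2 are CArG boxes with 1 mismatch at −84 to −75 (chr19:34255438-34255467) and −34 to −25 (chr19:34255388-34255417), and CATTCC, here on the other strand as GGAATG, at −146 to −141 (chr19:34255504-34255529). For Tpm1 they are CArG boxes with 1 mismatch at −221 to −212 (chr9:67049407-67049444) and −80 to −71 (chr9:67049274-67049303), and GGAATG at −56 to −51 (chr9:67049254-67049279). Capitals again mark the motif.
Acta2, CArG at −84: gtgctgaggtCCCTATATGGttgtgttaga
Acta2, CArG at −34: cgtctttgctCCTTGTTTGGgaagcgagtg
Acta2, CATTCC: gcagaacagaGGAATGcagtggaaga
Tpm1, CArG at −221: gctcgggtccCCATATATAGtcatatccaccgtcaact
Tpm1, CArG at −80: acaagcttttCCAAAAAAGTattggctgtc
Tpm1, CATTCC: gctgtcctaaGGAATGcggtcgcccc

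In injured kidneys given the isotype antibody, 6 of the 7 tested genes rose against sham, and Cnn1 was the gene that did not pass the test (edgeR quasi-likelihood test, Benjamini-Hochberg adjusted p below 0.05 over 13124 genes). Over all genes, 32.1% were called higher and 30.7% lower in this comparison. The 7 genes too were chosen with earlier results of these data known, so their counts describe them and are no independent support. The median log2 change was 2.22 over the 7 genes and 0.03 over all genes, and 2.66 with Flnc and Akap12, which were chosen for large changes. In 6 of the 7 genes all 3 isotype kidneys lay above all 3 sham kidneys, which held for 35.5% of all genes. In whole kidneys, more cells of a type and more RNA per cell cannot be told apart, and this holds for every comparison below.

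Among the smooth muscle genes, Acta2 (Entrez 11475, GRCm38 chr19:34241090-34255590) stood at 34.4, 31.4 and 34.0 CPM in the sham kidneys and at 155, 278 and 277 CPM in the isotype kidneys. Its groups did not overlap, and kidney 4 was the lowest of the isotype kidneys. The level rose by 2.83 ± 0.328 (SE) on the log2 scale (edgeR adjusted p = 2.72e-05), a fold of 7.11. Tagln (Entrez 21345, chr9:45929619-45936058) stood at 25.5, 26.9 and 22.6 CPM in sham kidneys and at 231, 295 and 282 CPM in isotype kidneys. With a log2 change of 3.43 ± 0.359 (edgeR adjusted p = 1.40e-05), a fold of 10.8, it rose the most of the 7 tested genes, and no sham kidney came near an isotype kidney. The gene body of Tagln overlaps Pcsk7 and the antisense gene Gm48529 on the other strand. The libraries were strand-specific, but the strand setting of the counting is not given in the sources used here, so reads of these genes may be mixed.

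Myl9 (Entrez 98932, chr2:156775420-156781658) moved less, from 32.2, 25.6 and 32.0 CPM in sham kidneys to 45.8, 78.8 and 70.3 CPM in isotype kidneys. It rose by 1.12 ± 0.190 on the log2 scale (edgeR adjusted p = 0.000359), a fold of 2.17, with no overlap of the groups. Cnn1 (Entrez 12797, chr9:22099216-22109630) was near the lower limit of the table, at 2.01, 1.04 and 2.40 CPM in sham kidneys and 1.94, 3.32 and 2.23 CPM in isotype kidneys. These groups overlapped. Its log2 change of 0.46 ± 0.321 did not pass the test (edgeR adjusted p = 0.230), with a 95% interval from −0.24 to 1.16, which holds both 0 and a log2 change of 1. Its raw counts ran from 16 to 54 per library, and this small number limits its precision.

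Both tropomyosin genes rose, and their groups did not overlap. Tpm1 (Entrez 22003, chr9:67022590-67049406) stood at 90.7, 93.4 and 92.6 CPM in sham kidneys, the tightest of the 9 genes there, and at 228, 248 and 265 CPM in isotype kidneys, a log2 change of 1.42 ± 0.165 (edgeR adjusted p = 2.79e-05). Tpm2 (Entrez 22004, chr4:43514711-43523765) went from 10.9, 10.6 and 11.9 CPM to 43.1, 57.9 and 54.4 CPM, a log2 change of 2.22 ± 0.236 (edgeR adjusted p = 1.54e-05).

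Of the filamins, Flna (Entrez 192176, chrX:74223461-74249820) stood at 115, 92.1 and 94.1 CPM in sham kidneys and at 547, 666 and 692 CPM in isotype kidneys. It rose by 2.66 ± 0.385 on the log2 scale (edgeR adjusted p = 0.000117), a fold of 6.32. Flnc (Entrez 68794, chr6:29433256-29461883) was almost silent in sham kidneys, with 11, 5 and 11 raw counts, or 0.737, 0.324 and 0.753 CPM. In the isotype kidneys it held 2521, 2806 and 3424 counts, or 140.0, 172 and 218 CPM. Its log2 change was 8.18 ± 1.46, the 15th highest of 13124 genes. With library totals in place of TMM factors, the table held no gene whose third-highest CPM was under 2.01. Flnc was above this through its isotype kidneys, so that its presence in the table already required a group with a high level.

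Akap12 (Entrez 83397, chr10:4266380-4359470) stood at 22.7, 21.0 and 19.5 CPM in sham kidneys and at 207, 879 and 998 CPM in isotype kidneys. All isotype kidneys were higher than all sham kidneys, but kidney 4 held far less than kidneys 5 and 6. The coefficient of variation over the isotype kidneys was 61.4% for Akap12, against 30.0% for Acta2, 7.42% for Tpm1 and a median of 12.4% over all genes. The log2 change of Akap12 was 5.04 ± 0.587, the 47th highest of all genes. With 1 kidney left out at a time it ran from 4.69 to 5.48.

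**Figure D1:**
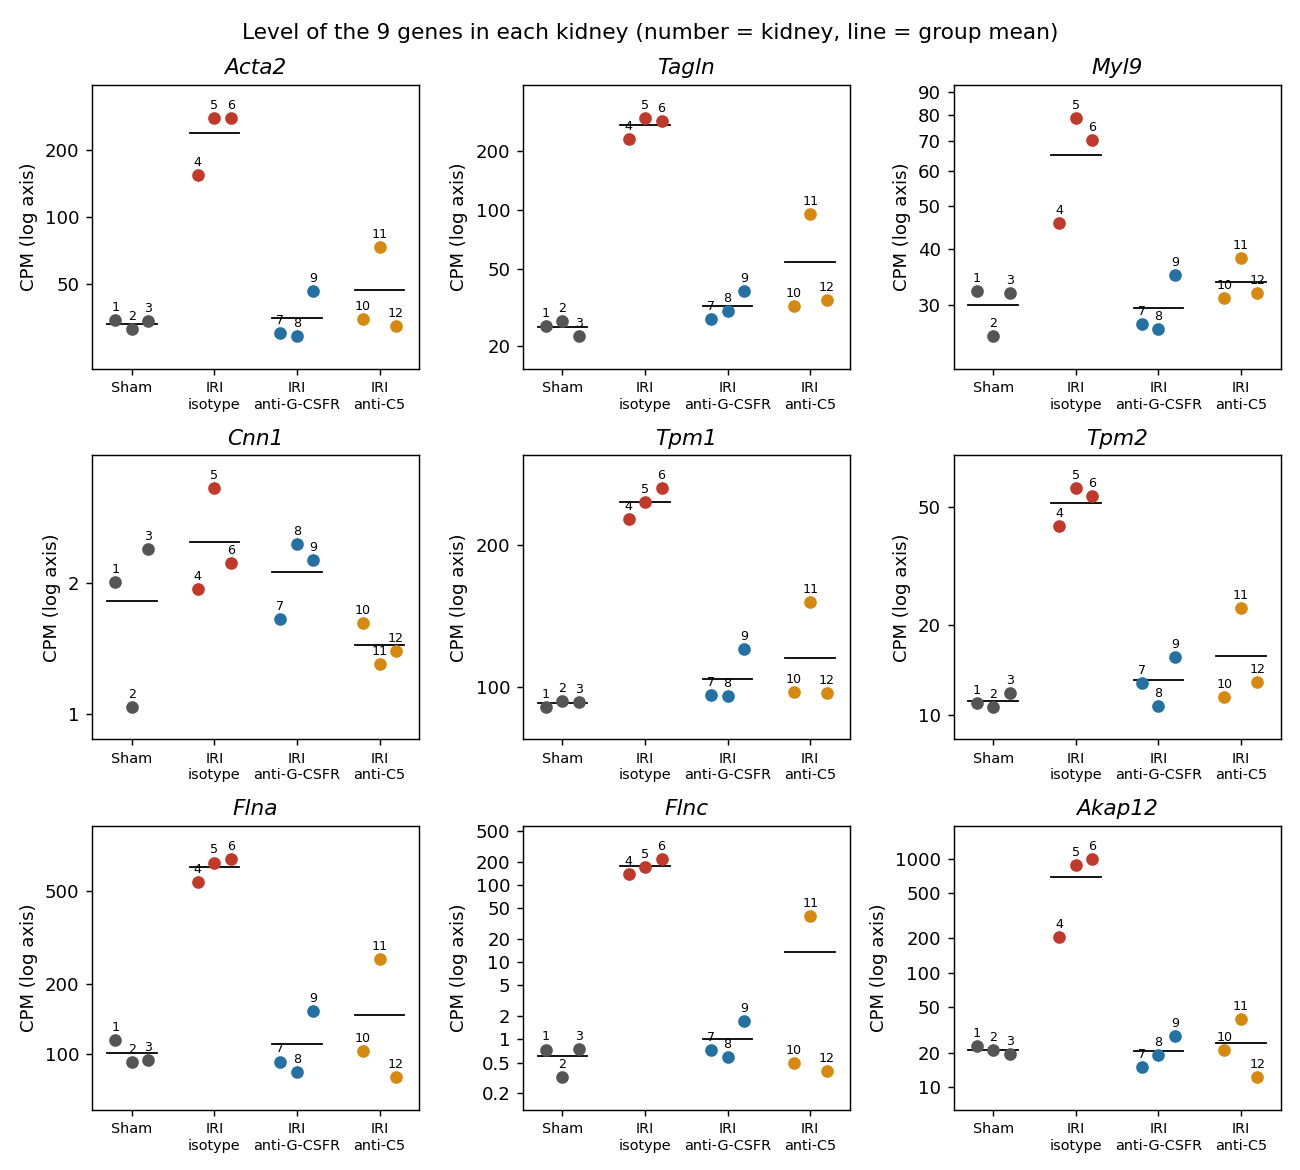
Each panel plots 1 gene, with the level in CPM on a log axis and the 4 groups side by side; points are kidneys, labelled by number, and lines are group means. In every panel but that of Cnn1 the isotype kidneys lie above all other kidneys, and kidneys 9 and 11 are the highest of their groups.

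Levels between genes can be set side by side per length, as CPM per kilobase of the union of a gene's exons. In sham kidneys the order from the highest was Myl9 (25.8 ± 3.26, SD, n = 3), Acta2 (15.1 ± 0.736), Tpm1 (14.2 ± 0.208), Tagln (12.6 ± 1.11), Flna (10.7 ± 1.34), Tpm2 (3.83 ± 0.217), Akap12 (3.26 ± 0.248), Cnn1 (0.664 ± 0.256) and Flnc (0.0644 ± 0.0259). Acta2 and Tpm1 did not differ beyond their ranges over the 3 kidneys, which were 14.3 to 15.7 and 14.0 to 14.4, nor did Tagln and Flna, at 11.4 to 13.5 and 9.80 to 12.2. In isotype kidneys the order was Tagln (135 ± 17.1), Acta2 (108 ± 32.3), Akap12 (107 ± 66.0), Flna (67.5 ± 8.17), Myl9 (55.9 ± 14.8), Tpm1 (38.1 ± 2.83), Flnc (18.8 ± 4.17), Tpm2 (17.8 ± 2.66) and Cnn1 (0.913 ± 0.265). Akap12, among the lowest per length in sham, was level with Acta2 there, within a wide spread. The ranges over kidneys of neighbours in this order overlapped, except those of Tpm1 and Flnc and of Tpm2 and Cnn1.

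Under the antibody against G-CSFR, 6 of the 7 tested genes were lower than in the isotype kidneys, and Cnn1 again did not pass the test. Over all genes 32.0% were called lower and 31.5% higher. The median log2 change of the 7 genes was −1.99, against −0.02 over all genes. In 6 of the 7 all 3 kidneys lay below all 3 isotype kidneys, as for 34.1% of all genes. With Flnc and Akap12, which were chosen for large changes, the median was −2.53. This comparison and the one with the antibody against C5 share the isotype kidneys, so their values are given side by side and are not independent of each other.

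Acta2 stood at 30.1, 29.2 and 46.3 CPM in kidneys 7 to 9, all in or close to the sham range except kidney 9. It fell by 2.75 ± 0.327 on the log2 scale against isotype (edgeR adjusted p = 3.80e-05). Tagln stood at 27.5, 30.4 and 38.4 CPM, with a log2 change of −3.07 ± 0.352 (edgeR adjusted p = 3.10e-05). Both genes were highest in kidney 9, and neither group overlapped the isotype kidneys. Myl9, at 27.2, 26.6 and 34.9 CPM, fell by 1.13 ± 0.191 (edgeR adjusted p = 0.000339). Cnn1, at 1.65, 2.46 and 2.27 CPM, overlapped the isotype kidneys, with a log2 change of −0.23 ± 0.319 (edgeR adjusted p = 0.540).

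The tropomyosins and Flna behaved alike in this comparison. Tpm1 stood at 95.8, 95.8 and 120.2 CPM and fell by 1.25 ± 0.165 (edgeR adjusted p = 6.96e-05), and Tpm2 stood at 12.8, 10.7 and 15.7 CPM and fell by 1.99 ± 0.233 (edgeR adjusted p = 3.52e-05). Flna, at 92.7, 83.6 and 153 CPM, fell by 2.53 ± 0.383 (edgeR adjusted p = 0.000170). Kidney 9 was the highest for each of these genes and still below every isotype kidney. Flnc held 11, 8 and 23 raw counts, or 0.727, 0.597 and 1.74 CPM, a log2 change of −7.44 ± 1.38 against isotype. Akap12 stood at 14.9, 19.1 and 27.8 CPM, a log2 change of −5.08 ± 0.589. For Flnc this was the 6th lowest of 13124 changes and for Akap12 the 28th lowest. Without kidney 9 the log2 changes were −2.97 for Acta2, −3.19 for Tagln, −1.25 for Myl9, −0.26 for Cnn1, −1.34 for Tpm1, −2.11 for Tpm2, −2.82 for Flna, −8.01 for Flnc and −5.33 for Akap12, each farther from 0 than with it.

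Under the antibody against C5, 6 of the 7 tested genes were also lower than in the isotype kidneys, at a median log2 change of −1.72 over the 7 genes and −0.01 over all genes, and of −2.12 with Flnc and Akap12, which were chosen for large changes. Over all genes 29.8% were called lower and 30.5% higher. All 3 kidneys lay below all 3 isotype kidneys for each of the 7 genes, as for 31.0% of all genes. Kidney 11 differed from kidneys 10 and 12 for every gene of the 9 except Cnn1, and its values are given first.

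Acta2 stood at 73.0 CPM in kidney 11 and at 34.7 and 32.5 CPM in kidneys 10 and 12, and fell by 2.34 ± 0.321 on the log2 scale (edgeR adjusted p = 0.000115). Tagln stood at 95.2 CPM in kidney 11 and at 32.3 and 34.6 CPM in the others, a log2 change of −2.32 ± 0.340 (edgeR adjusted p = 0.000176). Kidney 11 thus lay between the sham and isotype kidneys for both genes. Myl9, at 38.2, 31.0 and 31.9 CPM, differed less between these kidneys and fell by 0.94 ± 0.189 (edgeR adjusted p = 0.00125).

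Cnn1 was the exception to the pattern of kidney 11, which held 1.30 CPM, the lowest of its group, beside 1.62 and 1.39 CPM in kidneys 10 and 12. All were below the isotype kidneys, but the log2 change of −0.79 ± 0.332 did not pass the test (edgeR adjusted p = 0.0572). It passed when kidney 2 was left out (−0.79, edgeR adjusted p = 0.0320), when kidney 4 was left out (−0.94, edgeR adjusted p = 0.0369) and with library totals in place of TMM factors (−0.97, edgeR adjusted p = 0.0241). Without kidney 11 its log2 change was −0.72. Over all settings its adjusted p ran from 0.0241 to 0.230.

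Tpm1 stood at 152 CPM in kidney 11 and at 97.3 and 97.2 CPM in kidneys 10 and 12, a log2 change of −1.10 ± 0.164 (edgeR adjusted p = 0.000195). Tpm2, with kidney 11 again given first, stood at 22.9, 11.4 and 12.9 CPM, a log2 change of −1.72 ± 0.230 (edgeR adjusted p = 0.000101). Flna stood at 256, 103 and 79.5 CPM, a log2 change of −2.12 ± 0.376 (edgeR adjusted p = 0.000582). In each, kidney 11 was the highest of its group and remained below the lowest isotype kidney. Without kidney 11 the log2 change was −2.81 for Acta2, −3.01 for Tagln, −1.04 for Myl9, −1.34 for Tpm1, −2.09 for Tpm2 and −2.80 for Flna. The fold of Tagln thus went from 4.98 to 8.04 and that of Flna from 4.34 to 6.94.

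Flnc was the gene most dominated by kidney 11, which held 547 raw counts or 39.6 CPM, while kidneys 10 and 12 held 7 and 5 counts, or 0.494 and 0.387 CPM. Its log2 change against isotype was −3.71 ± 1.05 with kidney 11 and −8.62 without it. Akap12 stood at 39.3 CPM in kidney 11 and at 20.9 and 12.2 CPM in kidneys 10 and 12, a log2 change of −4.84 ± 0.582, the 5th lowest of all genes, and −5.38 without kidney 11. Kidney 11 lay above the sham mean for both genes, by 0.90 in log2 CPM for Akap12 and by 5.81 for Flnc.

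**Figure D2:**
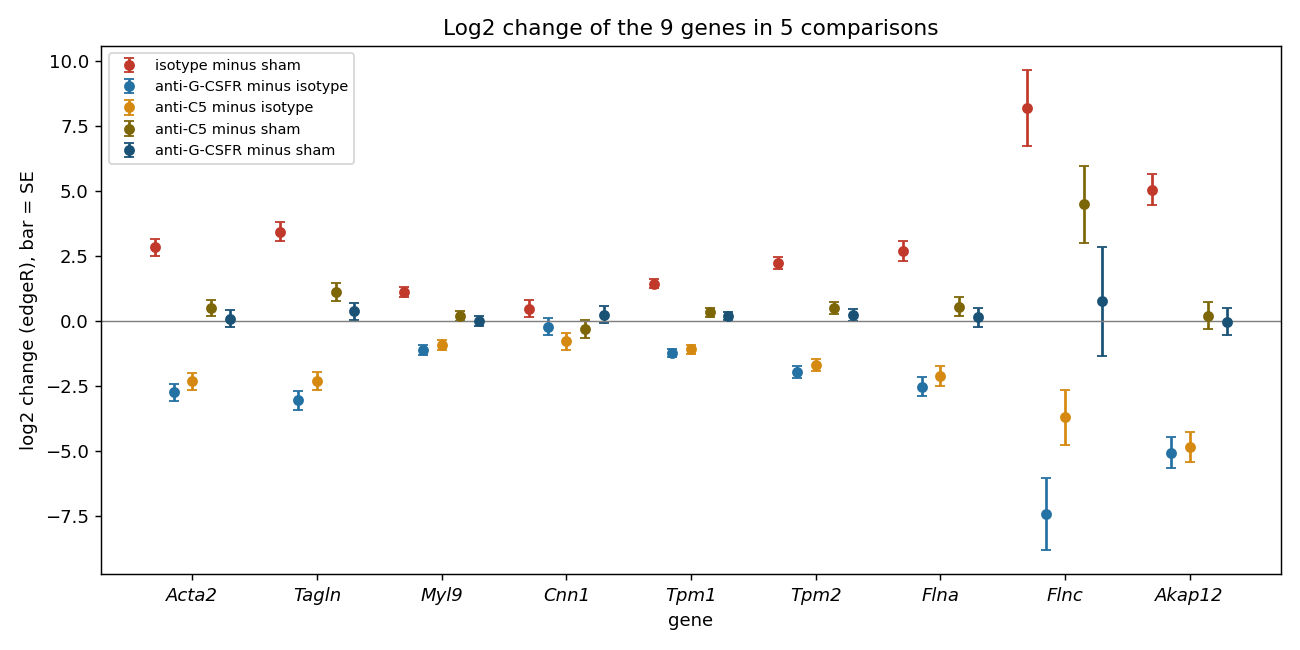
Points are edgeR's log2 changes of each gene in 5 comparisons, and bars are their approximate SE, derived from the test statistic. Positive values mean a higher level in the group named first. Changes of isotype against sham are above 0 and those of both antibodies against isotype below 0 for all 9 genes, though Cnn1 did not pass a test in any of them. Flnc has the widest bars.

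The antibody-treated kidneys were not called different from sham or from each other. Of the 7 genes, 0 were called in anti-G-CSFR against sham, in anti-C5 against sham or in anti-G-CSFR against anti-C5 (edgeR), and of all genes 0.00% were called in either direction in each. At an unadjusted p below 0.05, edgeR found 0, 1 and 1 of the 7 genes and 778, 1487 and 207 of all genes in these comparisons. DESeq2 and limma-voom called 0 of the 7 genes in each. With edgeR on the 6 compared libraries alone, 41 of all genes were called higher and 2 lower in anti-G-CSFR against sham, none of the 7 among them. Over all genes DESeq2 called 9 higher and 0 lower, 7 higher and 21 lower, and 0 higher and 2 lower, in that order, while limma-voom called 0.

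Tagln was the gene at an unadjusted p below 0.05 in both anti-C5 against sham and anti-G-CSFR against anti-C5. Against sham its log2 change under anti-C5 was 1.11 ± 0.338 (edgeR adjusted p = 0.371), with a 95% interval from 0.37 to 1.85. Without kidney 11 the change was 0.42. Under anti-G-CSFR it was 0.36 ± 0.339 (edgeR adjusted p = 0.876), with an interval from −0.38 to 1.10. Between the antibodies the log2 change of Tagln, anti-G-CSFR minus anti-C5, was −0.75 ± 0.335, with an interval from −1.48 to −0.02 and an edgeR adjusted p of 1.00. For Acta2 the interval between the antibodies was −1.10 to 0.27, for Flna −1.21 to 0.38, for Tpm1 −0.51 to 0.20 and for Myl9 −0.61 to 0.23, so differences of these sizes cannot be told from none with 3 kidneys a group.

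The place of each antibody-treated kidney between the groups was described for the 8 genes other than Cnn1, with the mean log2 CPM of sham kidneys set to 0% and that of isotype kidneys to 100%. Kidney 9 lay at 8.4% for Akap12 to 26.9% for Tpm1, while kidneys 7 and 8 lay at −15.1% to 9.2%. Kidney 11 lay at 18.9% for Akap12, 33.0% for Myl9, 40.8% for Acta2, 56.4% for Tagln and 73.1% for Flnc, while kidneys 10 and 12 lay at −16.4% to 13.8%. Kidneys 9 and 11 were the highest of their groups for each of the 8 genes. Tagln and Tpm1 were the genes for which all 6 antibody-treated kidneys lay above the sham mean, at 4.2% to 56.4% for Tagln and 3.8% to 50.6% for Tpm1. The summed level of 10 genes of injured tubules was 12165 CPM in kidney 9 and 14633 CPM in kidney 11, against 1687 to 2076 CPM in the other 4 antibody-treated kidneys. Most of these sums was Spp1, at 10424 CPM in kidney 9 and 10758 CPM in kidney 11. Other genes of the list were less alike in kidneys 9 and 11, such as Havcr1 (345 and 1507 CPM) and Krt20 (14.3 and 98.8 CPM). Krt18 was nearly level (36.5 and 35.9 CPM). The summed level of 7 leukocyte genes was 145 CPM in kidney 11 but 31.6 CPM in kidney 9, and 27.1 to 38.8 CPM in the others. The part of these cells in the result was not tested.

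**Figure D3:**
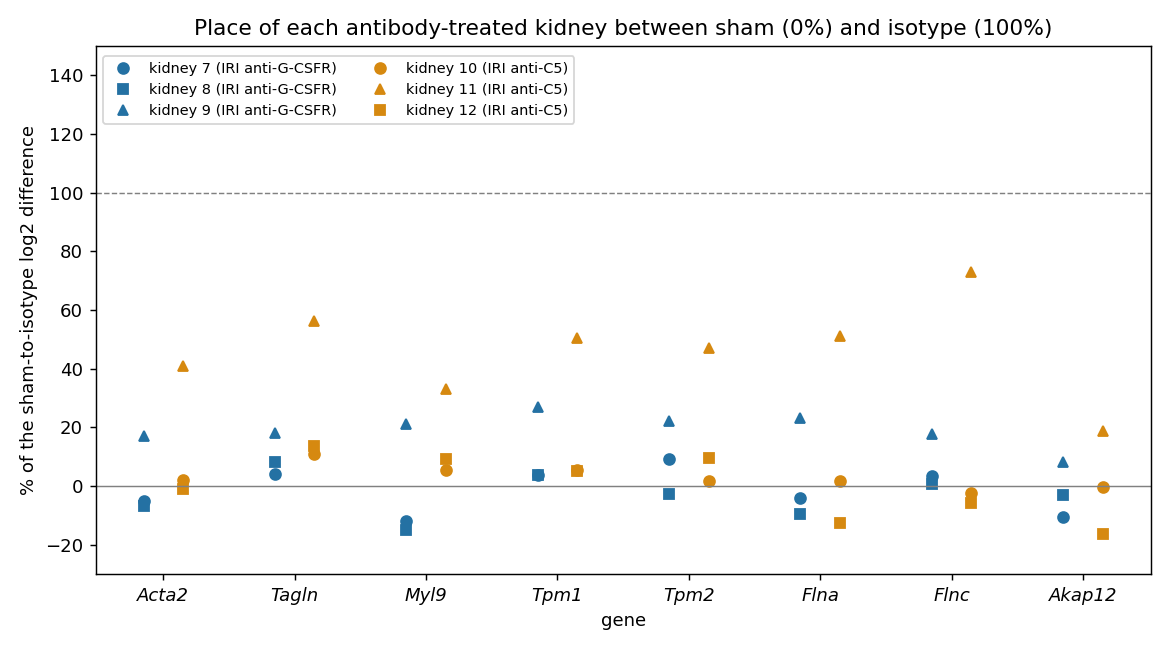
The vertical axis is the percentage of the sham-to-isotype difference in mean log2 CPM at which each antibody-treated kidney lies, for 8 genes on the horizontal axis; blue marks anti-G-CSFR and orange anti-C5. Kidney 11 (orange triangles) reaches 73.1% for Flnc and 18.9% for Akap12, and kidney 9 (blue triangles) lies between 8.4% and 26.9%.

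Other genes of the contractile apparatus moved less evenly. All gene lists, like the 9 genes, were chosen with earlier results of these data known, so counts over them are descriptions. Each count below stands beside the share of all genes. In isotype against sham, 32.1% of all genes were called higher and 30.7% lower. Against isotype, 32.0% were lower and 31.5% higher under anti-G-CSFR, and 29.8% lower and 30.5% higher under anti-C5. Of 16 measured smooth muscle genes outside the 9, 10 rose and 2 fell in isotype kidneys against sham, and 4 did not pass the test, with a median log2 change of 0.55. Myh11, the myosin heavy chain that defines mature smooth muscle, stood at 31.0, 21.5 and 28.1 CPM in sham kidneys and at 24.2, 33.0 and 33.6 CPM in isotype kidneys. These ranges overlapped, with a log2 change of 0.17 ± 0.194, a 95% interval from −0.25 to 0.59 and an edgeR adjusted p of 0.462. Its interval thus lies below that of Acta2, 2.11 to 3.55. Mylk, which encodes the kinase that phosphorylates Myl9, had a log2 change of 0.38 ± 0.162, just short of the threshold (edgeR adjusted p = 0.0563). It passed in 9 of 23 settings, with an adjusted p from 0.0174 to 0.184, among them those without kidney 1, 6, 9, 11 or 12 (0.50, 0.46, 0.37, 0.38 and 0.38). The genes of this list that rose the most were Cnn2, a calponin of many cell types (1.67 ± 0.187, edgeR adjusted p = 2.17e-05), Csrp1, a LIM-domain protein (1.57 ± 0.194, edgeR adjusted p = 4.09e-05), and Lmod1, a leiomodin that nucleates actin (1.55 ± 0.334, edgeR adjusted p = 0.00170). Under anti-C5 Myh11 was lower than in isotype kidneys, at −0.59 ± 0.197 (edgeR adjusted p = 0.0216). This call was lost without kidney 5, 6, 11 or 12 (−0.52, −0.51, −0.52 and −0.50, edgeR adjusted p from 0.0604 to 0.0809). Under anti-G-CSFR its change of −0.30 ± 0.196 did not pass (edgeR adjusted p = 0.194), and with library totals it did (−0.51, edgeR adjusted p = 0.0492).

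Markers of pericytes, mesangium and fibroblasts were split. Of 14 such genes, 7 rose, 4 fell and 3 did not pass in isotype kidneys against sham, with a median log2 change of 0.72. Vim, an intermediate filament protein of mesenchymal and of injured epithelial cells, rose by 3.00 ± 0.371 (edgeR adjusted p = 4.07e-05), Postn, a matrix protein, by 2.04 ± 0.361 (edgeR adjusted p = 0.000464) and Mcam, an adhesion molecule of vessels, by 1.94 ± 0.287 (edgeR adjusted p = 0.000134). Markers of pericytes and other mural cells moved both ways, since Pdgfrb (1.25, edgeR adjusted p = 0.00243) and Notch3 (0.82, edgeR adjusted p = 0.00565) rose as well, while the 4 genes that fell were Abcc9, Kcnj8, Rgs5 and Cspg4, with log2 changes of −1.78, −0.55, −0.51 and −0.51. The calls of Kcnj8 and Cspg4 were each lost without kidney 1, 5 or 6, and that of Kcnj8 also without kidney 2, with edgeR adjusted p up to 0.0950. These were picked out with their values known, and with library totals in place of TMM factors 1 of the 14 genes fell, Abcc9, and 9 rose. The summed level of the list was 354 to 428 CPM in sham and 716 to 1013 CPM in isotype kidneys, and that of the smooth muscle list 895 to 964 and 1436 to 1520 CPM. Myl6 alone gave 348 to 373 and 439 to 585 CPM of the smooth muscle sum. The injured tubule list summed to 1508 to 2428 CPM in sham and 34189 to 39121 CPM in isotype kidneys, with 10 of 10 genes called higher, and 8 of 8 proximal tubule genes fell. Spp1 gave most of the injured tubule sum, 1065 to 1903 CPM in sham and 23146 to 28860 CPM in isotype kidneys. Endothelial genes summed to 520 to 601 CPM in sham and 640 to 858 CPM in isotype kidneys, with 4 of 8 called higher and 1 lower. Leukocyte genes summed to 32.3 to 38.5 and 96.3 to 156 CPM, with 5 of 7 called higher. Csf3r of this list and Sox9 of the injured tubule list were above the lower limit of the table only with the isotype kidneys. Nothing is read from their calls, which are among those counted. The part of each cell type in the levels of the 9 genes was not tested.

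Striated muscle was looked for because Flnc is known from it. Of 14 striated muscle genes, 2 had an entry in the table, and the others were not analysed here. These 2 genes summed to 1.36 to 1.88 CPM in sham and 3.11 to 4.85 CPM in isotype kidneys. The groups of Xirp2 alone did not overlap, and nothing is read from the sum for the reason given below for Xirp2. Xirp2, picked out with its values known, an actin-binding protein of muscle that partners filamin C, was at 0 in kidneys 2 and 3, at 0.0670 CPM in kidney 1 and at 1.44, 2.64 and 3.19 CPM in the isotype kidneys. In kidney 11 it held 2.03 CPM, and in kidneys 10 and 12 it was at 0. Like Flnc, Xirp2 was above the lower limit of the table through its high kidneys, here 5, 6 and 11, so nothing is read from its lower level in sham. Tnnc1, a troponin of heart and slow muscle, was the other measured gene, at 1.81, 1.36 and 1.78 CPM in sham and 1.67, 2.21 and 1.53 CPM in isotype kidneys. These groups overlapped, and its log2 change of 0.13 ± 0.381 did not pass the test (edgeR adjusted p = 0.786). The part of muscle cells in the level of Flnc was not tested.

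Among genes of the actin network of all cells, 17 of 20 rose, 1 fell and 2 did not pass, with a median log2 change of 1.31. Actb, the cytoplasmic actin, went from 458, 464 and 544 CPM in sham kidneys to 1216, 1529 and 1463 CPM in isotype kidneys, a log2 change of 1.52 ± 0.216 (edgeR adjusted p = 0.000104). Actg1, the other cytoplasmic actin, rose by 1.37 ± 0.211 (edgeR adjusted p = 0.000180). Their groups did not overlap, so common reference genes were not constant in these kidneys. The 3 with the largest change were Actn1, an actin cross-linker (3.01 ± 0.459, edgeR adjusted p = 0.000166), Tpm4, a non-muscle tropomyosin (2.62 ± 0.339, edgeR adjusted p = 5.52e-05), and Msn, which ties actin to the membrane (2.30 ± 0.306, edgeR adjusted p = 6.85e-05). Against isotype, 18 of 20 were lower under each antibody.

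Of 13 measured genes of the SRF pathway, 12 rose and 1 fell in isotype kidneys against sham, with a median log2 change of 1.06. Srf stood at 22.3, 20.0 and 23.7 CPM in sham kidneys and at 41.3, 47.5 and 48.9 CPM in isotype kidneys, a log2 change of 1.06 ± 0.145 (edgeR adjusted p = 8.23e-05). Its partners Mrtfa (1.05 ± 0.186, edgeR adjusted p = 0.000493) and Mrtfb (0.89 ± 0.175, edgeR adjusted p = 0.000921) rose as well, and Myocd, the muscle-specific partner, had no entry in the table. The 3 with the largest change were Ccn2 (3.17 ± 0.425, edgeR adjusted p = 7.17e-05), Ankrd1 (3.00 ± 0.550, edgeR adjusted p = 0.000603) and Ccn1 (2.72 ± 0.491, edgeR adjusted p = 0.000538), all known targets of the YAP and TEAD factors as well. Ccn2 resembled Akap12 in kidney 4, which held 152 CPM beside 547 and 498 CPM in kidneys 5 and 6. Under anti-G-CSFR 11 of the 13 genes were lower and 1 higher than in isotype kidneys, with Srf at −1.13 ± 0.146 (edgeR adjusted p = 6.09e-05), and under anti-C5 also 11 and 1, with Srf at −0.96 ± 0.145 (edgeR adjusted p = 0.000210).

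Of 10 measured partners of filamins and of filamin turnover, 9 rose and 1 did not pass in isotype kidneys against sham, with a median log2 change of 1.53. Hspb1, a small heat shock protein that protects actin filaments, rose by 4.00 ± 0.603 (edgeR adjusted p = 0.000158), Pdlim7, a PDZ and LIM protein of actin fibres, by 3.43 ± 0.429 (edgeR adjusted p = 4.43e-05) and Fblim1, which binds filamins at adhesions, by 1.95 ± 0.409 (edgeR adjusted p = 0.00143).

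The relatives of Akap12 were split. Of 12 measured kinase A anchoring proteins and kinase A subunits, 4 were higher, 5 lower and 3 not called in isotype kidneys against sham, and their median log2 change was −0.09, near that of all genes. With library totals in place of TMM factors 6 were higher and 2 lower, at a median of 0.11, so no direction is given for the list. Prkar2a, a regulatory subunit that anchoring proteins bind, rose by 1.03 ± 0.156 (edgeR adjusted p = 0.000158). Akap1, an anchor on mitochondria, fell by 0.77 ± 0.104 (edgeR adjusted p = 7.59e-05), and Akap7 fell by 0.63 ± 0.139 (edgeR adjusted p = 0.00189). Against isotype, 5 of the 12 were lower and 4 higher under anti-G-CSFR, and 5 lower and 3 higher under anti-C5. In the other 3 comparisons edgeR called 0 genes of any of these lists.

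**Figure D4:**
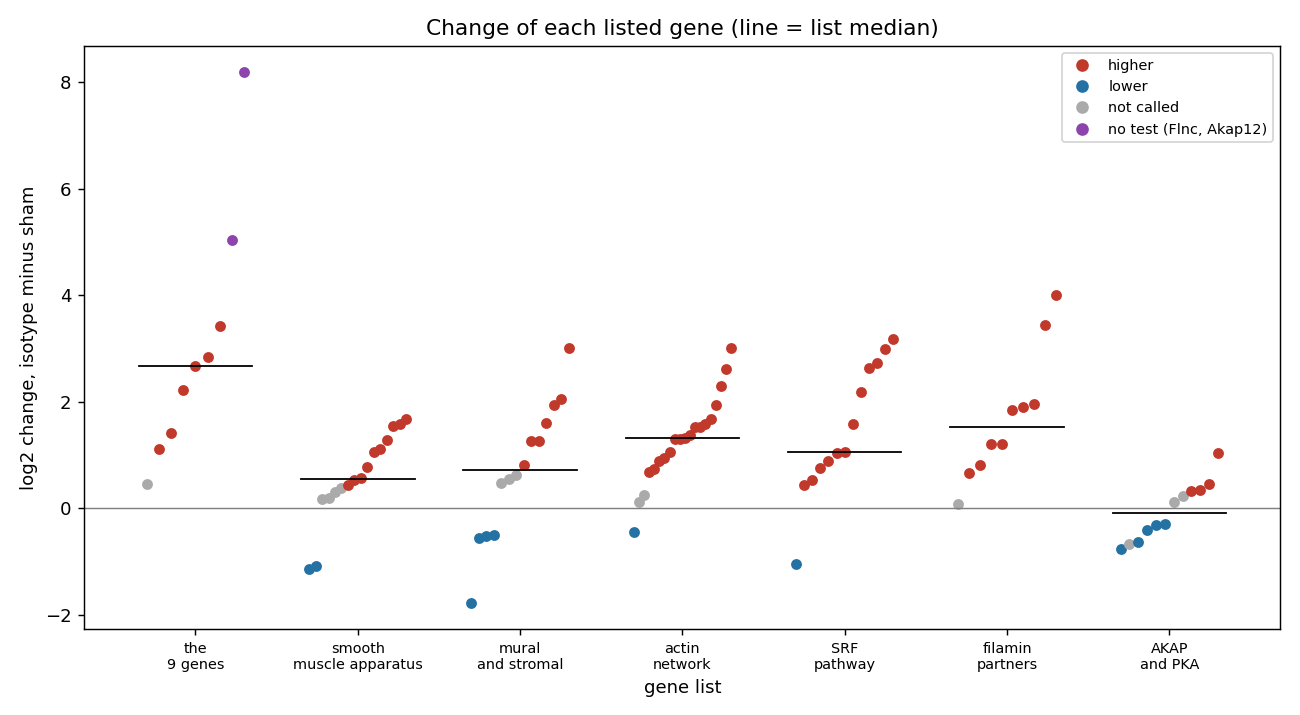
Points are genes, the vertical axis is edgeR's log2 change of isotype against sham, lines are list medians, and colours mark the call (red higher, blue lower, grey not called, purple not tested). The list medians are 1.31 for the actin network, 1.06 for the SRF pathway, 0.55 for smooth muscle and −0.09 for anchoring proteins. That of the 9 genes, 2.66, includes Flnc and Akap12, which were chosen for large changes, and is 2.22 without them.

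Likeness between genes was measured as the root mean square difference of log2 CPM over the 12 kidneys, with each gene set to its own sham mean, so that 0 means the same pattern. Patterns were not scaled, so distances tend to grow with the size of a gene's change and cannot be compared between genes of large and small change. Within the 9, Acta2 and Flna were the closest pair at 0.191, followed by Myl9 and Tpm1 at 0.269, and Cnn1 and Flnc the farthest at 4.16. Outside the 9, the nearest to Tagln were Eif4ebp1 (0.141), which encodes an inhibitor of translation initiation, Chrnb1 (0.223), a subunit of the muscle acetylcholine receptor, and Epha2 (0.242), an ephrin receptor. The nearest to Akap12 were Cdkn1a (0.479), which encodes the cell cycle inhibitor p21, Hmga1 (0.534), a chromatin protein, and Adgrg2 (0.608), an adhesion receptor. For Flnc, chosen for its large change and low in most kidneys, large distances follow in part from the measure, and no lack of neighbours is read from them. Ptprn (0.903), Sprr2f (0.925) and Lcn2 (0.955) were nearest with a prior count of 2. With a prior count of 0.5, 0 of these 3 were among the nearest, and the nearest was BC061237 (0.593).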

How the data were processed

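RNA of 12 kidneys was sequenced as strand-specific single-end reads of 100 bp, per the labels' protocols. The submitters' processing notes name Bowtie2 2.2.5, TopHat2 2.1.0, featureCounts and the build GRCm38.p4. For the counting, the strand setting is not given in the sources used here. Raw read counts made by the authors were deposited for 13124 Entrez genes, of which 13074 matched a RefSeq symbol. No gene's third-highest CPM was under 2.01, a limit read from the values with library totals in place of TMM factors. Coordinates are from GENCODE vM21 (GRCm38), counted from 1.

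The 9 genes and all gene lists were chosen with earlier results of these data known. Groups came from the labels. Within groups, chi-square values of kidney pairs, divided by their degrees of freedom, were 5.45 to 65.3, so no pair agreed within sampling noise and each kidney was 1 replicate. The series' design text counts mice (3 per group).

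The test was that of edgeR 4.0.16 under R 4.3.3 (TMM factors, robust quasi-likelihood fit over all 12 libraries, 8 residual degrees of freedom), with Benjamini-Hochberg adjustment over all genes. A gene was called at an adjusted p below 0.05, and "rose" and "fell" refer to such calls. CPM values are counts scaled to library size with TMM factors, and log2 CPM used a prior count of 2. The script was tested on simulated data. Named genes were the 9, 8 fixed genes (Srf, Mrtfa, Mrtfb, Myocd, Myh11, Mylk, Actb, Actg1), the 3 called genes of each list with the largest change in isotype against sham among those with mean log2 CPM 1 or more, of which those of the tubule, endothelial and leukocyte lists are given as sums and those of 1 further list are not reported here, and the 3 nearest neighbours of Tagln, Flnc and Akap12. Alternatives were library totals, upper-quartile and RLE factors, low-count filters, limma-voom (limma 3.58.1), DESeq2 1.42.0, the 6 compared libraries alone, no robust option, each kidney left out and kidneys 9 and 11 left out together.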

Additional observations from a re-analysis of the deposited data

How the results depend on the processing

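The 6 genes called in isotype against sham and in both antibodies against isotype were called in the same direction in all 23 settings, including each kidney left out. With library totals in place of TMM factors the medians over all genes were 0.23, −0.23 and −0.19 in these comparisons, with 5586 genes higher and 3095 lower, 3107 and 5554, and 3106 and 5111. Without kidneys 9 and 11, Flnc turned from −3.73 to 0.59 in anti-G-CSFR against anti-C5 and from 4.47 to −0.43 in anti-C5 against sham. Changes near 0 also turned sign there: Flna −0.17 and −0.13 in anti-G-CSFR and in anti-C5 against sham, and Acta2 −0.15 in anti-G-CSFR against sham. Akap12 turned from 0.20 to −0.34 in anti-C5 against sham and from −0.23 to 0.041 in anti-G-CSFR against anti-C5. Leaving out 1 kidney gave, in anti-G-CSFR against sham, ranges of −0.14 to 0.054 for Myl9, −0.055 to 0.48 for Cnn1, −0.15 to 0.20 for Acta2 and −0.17 to 0.29 for Flna. In anti-G-CSFR against anti-C5 the ranges were −0.64 to 0.065 for Acta2, −0.26 to 0.10 for Tpm1, −0.46 to 0.10 for Tpm2, −0.72 to 0.26 for Flna and −4.32 to 1.17 for Flnc. In anti-C5 against sham they were −0.14 to 0.84 for Flna and −0.44 to 5.04 for Flnc, and Cnn1 in anti-G-CSFR against isotype ran from −0.39 to 0.025. Akap12 ran from −0.29 to 0.15 in anti-G-CSFR against sham and from −0.34 to 0.51 in anti-C5 against sham. Between the antibodies it ran from −0.55 to 0.31. Of the tested genes here none was called, and the cause was not tested. The filter at a mean log2 CPM of 3 left Cnn1 untested. No paired analysis was possible because no kidney number occurs in more than 1 group. Raw counts of 16 to 54 for Cnn1 and of 5 to 23 for Flnc outside kidney 11 and the isotype kidneys limit what can be said of their low levels.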

Other observations

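Ratios between genes, chosen after their values were seen and given with no test, show how unequal the changes were within a kidney. The ratio of Acta2 to Myh11 counts was 1.26 ± 0.180 in sham kidneys (SD, n = 3), 7.69 ± 1.13 in isotype kidneys, 1.42 ± 0.0948 with the antibody against G-CSFR and 2.43 ± 1.40 with that against C5. Acta2 to Actb was 0.0684 ± 0.00635 in sham and 0.166 ± 0.0339 in isotype kidneys, so smooth muscle actin was higher even relative to cytoplasmic actin. Tpm2 to Tpm1 was 0.121 ± 0.00700 in sham and 0.209 ± 0.0226 in isotype kidneys. Flnc to Flna, of nearly the same exon length, was 0.00598 ± 0.00227 in sham, 0.277 ± 0.0336 in isotype kidneys and 0.154 in kidney 11, the highest of the anti-C5 kidneys. Flnc to Akap12 was 1.01 in kidney 11, above the highest isotype kidney at 0.677. In these ratios a gene's length has no effect on the comparison between groups.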
